A study of Mus musculus with 4 samples.

Results

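The macrophages described here carried many transcripts of both C1qa and Cxcl9 in mouse heart grafts. A cell was a member if it had at least 10 unique molecular identifiers (UMIs, each standing for 1 captured RNA molecule) of C1qa and at least 5 of Cxcl9, fewer than 2 of Mki67 and 0 of Cx3cr1, Cd3e and Cdh5, after cells with 200 or fewer genes or with 20% or more mitochondrial UMIs were left out. The rule found 1762 members among 44626 cells, which is 3.95% (95% Clopper-Pearson interval 3.77 to 4.13%). Intervals here cover counting error only.

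The cells came from 4 heart grafts taken on day 5 after transplantation, 2 allogeneic grafts from Balb/C donors and 2 syngeneic grafts from C57BL/6J donors. All recipients were male C57BL/6J mice, the donor hearts sat in the recipient's abdomen, and the sources used here name no drug or transgene. The counts were deposited as 1 merged matrix in which a barcode ending separates 4 libraries with 96020294 to 166079145 UMIs each. Nothing in the labels ties an ending to a graft, so the cells were treated as 1 pooled sample, the libraries are called 1 to 4, allogeneic and syngeneic grafts were not compared, and no test was possible.

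C1q is the recognition molecule of the classical complement pathway, and tissue macrophages are its main source. CXCL9 is a chemokine that macrophages and other cells make under interferon gamma, and it attracts T cells and NK cells that bear CXCR3. Macrophages exposed to interferon gamma are also known to make guanylate-binding proteins, to load more peptide on MHC molecules and to make nitric oxide.

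Almost all members came from a single library. Library 4 held 1759 of the 1762 members, library 1 held 3, and libraries 2 and 3 held 0 of 13154 and 0 of 9850 cells, which allows shares of up to 0.0228% and 0.0305% at a limit of 3 counts. Members made up 15.6% of the cells in library 4 (14.9 to 16.2%). C1q cells, which are cells chosen by the same rule with any number of Cxcl9 UMIs, were present in every library, with 106, 153, 111 and 1962 cells in libraries 1 to 4. Of these, 2.83% had 5 or more Cxcl9 UMIs in library 1 and 89.7% in library 4. Library 4 was also the deepest, with a median of 12649.5 UMIs per filtered cell against 6090.0, 5021.5 and 9600.0 in libraries 1, 2 and 3, and a rule by share of UMIs (C1qa at 1000 CPM and Cxcl9 at 500 CPM or more) found 4.77% of cells in place of 3.95%.

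**Figure D1:**
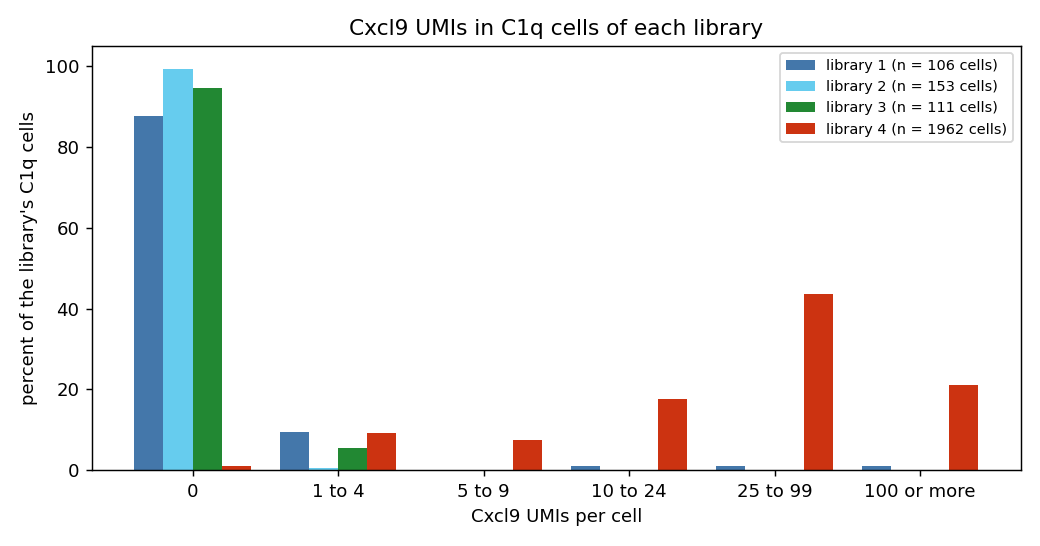
The bars give the percent of C1q cells of each library (vertical axis) with a given number of Cxcl9 UMIs (horizontal axis), with the number of C1q cells per library in the key. Cells at 0 Cxcl9 UMIs form 87.7%, 99.3% and 94.6% of libraries 1, 2 and 3 and 1.02% of library 4, where 43.5% have 25 to 99 UMIs.

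The limits cut through a continuous range of counts. Among C1q cells, 40 had 3 Cxcl9 UMIs, 50 had 4, 31 had 5 and 30 had 6, and among cells with enough Cxcl9, 25 had 9 C1qa UMIs and 26 had 10. The median member of library 4 had 61 C1qa UMIs and 50 Cxcl9 UMIs. Those values chose the cells and are given as a description. Before the limits on Mki67, Cx3cr1, Cd3e and Cdh5, 2296 cells met both UMI limits.

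The macrophage label was checked against markers. Levels are counts per 1000000 non-mitochondrial UMIs (CPM), summed over the cells of a group, and they count the 3′ ends of transcripts, so no correction for gene length applies. Members held 5112 CPM of C1qb, 6718 of Lyz2, a lysozyme of myeloid cells, 469 of the lysosomal protein gene Cd68, 403 of Csf1r, the receptor for colony-stimulating factor 1, and 168 of Adgre1, which encodes F4/80. Markers of other cells were low, although the rule itself had kept only cells at 0 Cd3e and 0 Cdh5 UMIs, so the T cell and endothelial values are partly fixed by it. The 6 T cell markers summed to 41.2 CPM, the 5 NK cell markers to 43.8 CPM and the 5 B cell markers to 5.18 CPM. Of the 8 dendritic cell markers the most abundant was Ccr7 at 8.89 CPM. Within the T cell list the most abundant gene was Trbc2 at 16.8 CPM, and within the NK cell list it was Gzma at 22.4 CPM. Granulocyte markers summed to 234 CPM, endothelial markers to 74.9 CPM and cardiomyocyte markers to 26.9 CPM. The 8 resident macrophage markers, of which the rule sets Cx3cr1 to 0, summed to 118 CPM in members, with F13a1 the most abundant at 49.5 CPM. Among monocyte markers, Plac8 stood at 2610 CPM and Ly6c2 at 731 CPM. After each cell of library 4 was thinned to 2000 UMIs, Plac8 was found in 90.3% of members, 53.6% of T cells and 45.9% of endothelial cells, and Ly6c2 in 52.8%, 39.9% and 15.3%. Csf1r was found in 55.2% of members and 55.2% of Ly6c2 Plac8 monocytes, and Adgre1 in 26.0% and 18.4%. Of 12 macrophage genes compared with those monocytes, 6 were at least 2-fold higher in members and 0 lower. Limits on C1qa in both rules partly fix C1qb and C1qc among them. Of 13 compared with C1q cells without Cxcl9, 2 were higher and 3 lower, the lower ones being Adgre1, Ms4a7 and Apoe.

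Fibroblast transcripts were concentrated in a few members. Of 1759 members in library 4, 27 (1.53%) had 20 or more summed UMIs of the 5 fibroblast markers, and those cells held 82.1% of the fibroblast UMIs. The markers summed to 557 CPM over all members and to 103 CPM without these cells, next to 106 CPM in Ly6c2 Plac8 monocytes. A simulated doublet score marked 102 members (5.79%), of which 7 were among the 27.

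The sum of all C1q cells gives the level of each gene in every library. Cxcl10, which encodes a second CXCR3 ligand, stood at 167 CPM, 167 CPM and 128 CPM in libraries 1, 2 and 3 and at 1661 CPM in library 4. Ccl5, whose product attracts T cells, stood at 18.2, 2.93 and 29.3 CPM in libraries 1, 2 and 3 and at 2794 CPM in library 4. Fcgr4, the gene of an activating receptor for IgG, stood at 161, 109 and 138 CPM and at 1168 CPM in library 4. These genes were highest in library 4, as were 31.1% of all 3689 genes that reached 50 CPM in some library. Ccl8, also a chemokine gene, was different: it stood at 1128 CPM in library 1, 5.50 CPM in library 2, 913 CPM in library 3 and 2074 CPM in library 4, so library 2 was the low one. C1qb did not follow library 4 either, at 6163, 3541, 5278 and 5069 CPM.

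Several lipid and resident macrophage genes were lowest in library 4. Of 11 lipid-associated genes, 6 were lowest in library 4 and 5 in library 2, and of 6 resident markers that reached 50 CPM, 5 were lowest in library 4 and 1 in library 3. Of all 3689 genes that reached 50 CPM in some library, 25.4% were lowest in library 4 and 26.8% in library 2. Apoe, the gene of apolipoprotein E, stood at 36604 CPM in library 1, 4395 in library 2, 34322 in library 3 and 2030 in library 4. Spp1, which encodes osteopontin, stood at 4523, 2436, 2683 and 141 CPM. Mrc1, the mannose receptor gene, stood at 483, 705, 382 and 39.5 CPM. Library 4 was lowest for all 3 genes, and the nearest to it was library 2 for Apoe and Spp1 and library 3 for Mrc1.

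**Figure D2:**
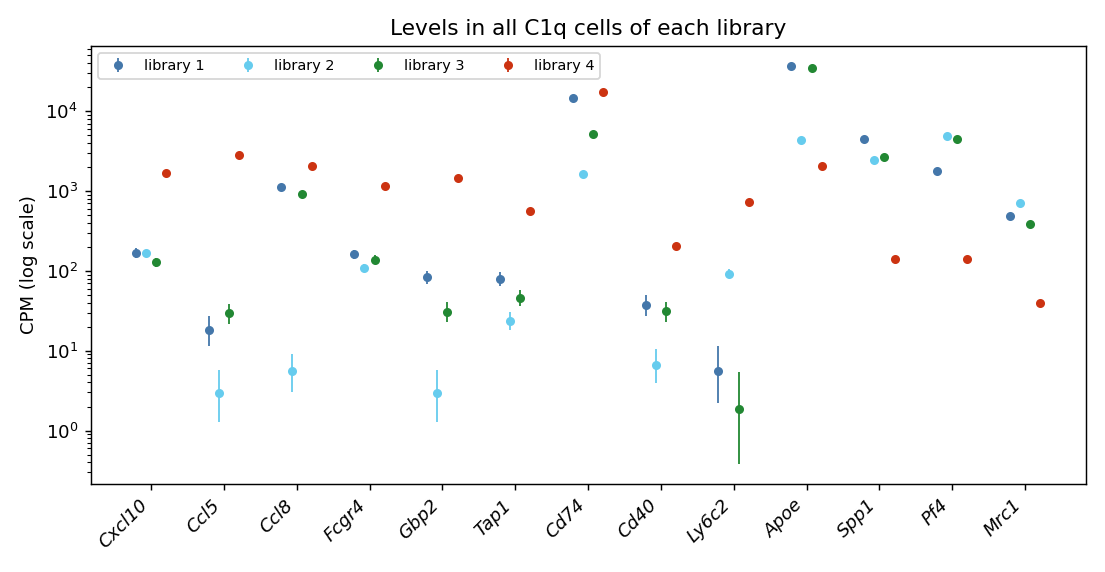
Points give the level of 13 genes (CPM, log axis) summed over the C1q cells of each library, and lines give 95% Poisson intervals. Cxcl10, Ccl5, Fcgr4, Gbp2, Tap1 and Cd40 are highest in library 4, and Apoe, Spp1, Pf4 and Mrc1 are lowest there.

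Members were then set beside 370 C1q cells at 0 Cxcl9 UMIs and beside 294 Folr2 Mrc1 cells, which had at least 10 C1qa, 2 Folr2 and 2 Mrc1 UMIs and fewer than 5 Cxcl9 UMIs. Folr2 and Mrc1 mark resident cardiac macrophages. These groups shared 98 cells, and both share the members, so the comparisons are not independent. Only 20 and 8 of these cells lay in library 4, so the difference between the groups and the difference between libraries cannot be told apart. Folds were computed with 10 CPM added to both groups, over genes at 50 CPM or more in at least 1 group, and a gene was counted past 2-fold. Members were deeper, with a median of 19541.5 UMIs against 14553 and 15122.5. Of 3244 genes compared with the C1q cells without Cxcl9, 9.34% were at least 2-fold higher in members and 6.63% at least 2-fold lower. Of 3357 genes compared with the Folr2 Mrc1 cells, 9.89% were higher and 8.58% lower.

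Interferon-inducible GTPase genes were higher in members in both comparisons. All 8 guanylate-binding protein genes compared were higher in members than in either group, with a median log2 fold of 3.24 against C1q cells without Cxcl9 and 3.14 against Folr2 Mrc1 cells, beside 0.04 and 0.03 over all genes. These proteins attack membranes around intracellular microbes. Gbp2 stood at 1444 CPM in members, 81.0 CPM in C1q cells without Cxcl9 and 81.9 CPM in Folr2 Mrc1 cells. All 6 immunity-related GTPase genes were also higher in both, and Iigp1 stood at 619 CPM against 36.2 and 60.3 CPM. Of 11 genes of interferon gamma signalling, 6 were higher against the first group and 7 against the second, and 0 were lower. Irf1, a transcription factor gene induced by interferon gamma, stood at 431 CPM against 88.8 and 123 CPM. Summed over all C1q cells, it stood at 167, 36.0, 82.8 and 435 CPM in libraries 1 to 4. Antiviral genes known as targets of type I interferon were higher as well, 11 of 11 compared with C1q cells without Cxcl9 and 10 of 11 compared with Folr2 Mrc1 cells, with median log2 folds of 1.79 and 1.66. The most abundant of them in members was Irf7, a transcription factor gene, at 484 CPM.

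Promoters of these genes were searched for 2 interferon-response motifs in the 250 bases before the RefSeq start, on both strands. The gamma-activated site motif GAS was spelled TTCNNNGAA and occurred in 7.02% of all 32851 promoters, and the motif ISRE was spelled as GAAA, any 2 bases and GAAA again and occurred in 2.98%. In the lists each gene counted once, with a match if any of its promoters held one. The shares of all promoters count every promoter, so the 2 are not the same measure. ISRE occurred in 7 of 13 antiviral genes and GAS in 3 of 13. ISRE also occurred in 5 of 5 guanylate-binding protein genes that the table held and in 5 of 6 immunity-related GTPase genes. It occurred in 1 of 8 interferon gamma signalling, 2 of 14 MHC class I, 0 of 6 complement and 0 of 7 MHC class II genes. GAS occurred in 2 of 5, 4 of 6, 3 of 8, 1 of 14, 0 of 6 and 1 of 7 genes of these lists, in the same order. The promoters of 3 genes are shown, Cxcl9 because it chose the members and Cxcl10 and Fcgr4 because both were higher in C1q cells of library 4 than of the other libraries, with ISRE matches in capitals (GRCm38.p6). Cxcl9 lies at chr5:92328080-92328329 on the minus strand, Cxcl10 at chr5:92348890-92349139 on the minus strand and Fcgr4 at chr1:171018676-171018925 on the plus strand. The Cxcl9 window held no match to these letters.
Cxcl9: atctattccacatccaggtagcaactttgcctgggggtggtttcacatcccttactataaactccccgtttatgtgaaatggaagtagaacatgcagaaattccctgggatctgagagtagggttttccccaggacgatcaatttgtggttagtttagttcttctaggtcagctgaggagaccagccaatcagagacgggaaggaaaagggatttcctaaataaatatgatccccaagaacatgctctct
Cxcl10: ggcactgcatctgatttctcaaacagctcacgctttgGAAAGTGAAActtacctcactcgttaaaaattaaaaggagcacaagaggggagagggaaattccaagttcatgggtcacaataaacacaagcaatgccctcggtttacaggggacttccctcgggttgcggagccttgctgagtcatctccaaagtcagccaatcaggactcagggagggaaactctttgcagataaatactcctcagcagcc
Fcgr4: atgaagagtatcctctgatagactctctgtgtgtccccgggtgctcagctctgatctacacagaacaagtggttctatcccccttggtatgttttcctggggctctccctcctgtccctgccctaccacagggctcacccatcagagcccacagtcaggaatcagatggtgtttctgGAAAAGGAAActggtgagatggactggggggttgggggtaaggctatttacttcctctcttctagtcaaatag
A match is a description of letters, and these data do not measure binding.

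Antigen presentation genes were higher in members as a group. Of 15 genes of MHC class I and peptide loading, 15 were higher against C1q cells without Cxcl9 and 14 against Folr2 Mrc1 cells. Tap1, a subunit of the peptide transporter, stood at 569 CPM against 64.2 and 79.0 CPM. All 6 MHC class II genes compared were higher in both, although without library 2 only 3 of 6 were higher against C1q cells without Cxcl9 (6 of 6 against Folr2 Mrc1 cells). Cd74, the invariant chain, stood at 17666 CPM in members, 5426 CPM in C1q cells without Cxcl9 and 3939 CPM in Folr2 Mrc1 cells. Summed over all C1q cells, Cd74 stood at 14501 CPM in library 1, 1655 in library 2, 5227 in library 3 and 17252 in library 4, and the class II gene H2-Eb1 at 5589, 218, 1924 and 5267 CPM. Library 1 was thus near library 4 for Cd74 and H2-Eb1. It was lower for H2-DMa, at 419 against 880 CPM, and for H2-DMb1, at 377 against 922 CPM. Library 2 was the lowest for all 6 class II genes, beside 26.8% of all 3689 genes that reached 50 CPM. Ciita, the master regulator of class II genes, stood at 118 CPM against 20.2 and 19.7 CPM. Among 8 costimulatory and coinhibitory genes, 5 and 4 were higher and 1 and 0 lower, the lower one being Tnfsf9 at 53.1 against 127 CPM. The higher ones included Cd40 at 214 CPM against 23.2 and 29.4 CPM and the PD-L1 gene Cd274 at 430.5 CPM against 61.9 and 33.4 CPM. Summed over all C1q cells, Cd40 stood at 37.1, 6.60, 31.1 and 205 CPM in libraries 1 to 4.

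Nos2 and Ass1, genes of nitric oxide synthesis, were higher in members. Nos2, the inducible nitric oxide synthase gene, stood at 296 CPM in members, 27.6 CPM in C1q cells without Cxcl9 and 10.4 CPM in Folr2 Mrc1 cells. Ass1, which rebuilds arginine, stood at 452 CPM against 46.3 and 11.4 CPM. Of the genes named by size of fold, Ccl5 was 44.9-fold higher than in C1q cells without Cxcl9, and against the 2 groups Ly6i had folds of 33.1 and 44.7 and Serpina3g of 17.9 and 24.9. Cfb, the complement factor B gene, was 15.9-fold and 15.6-fold higher.

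Lipid-associated and resident genes were lower in members. Of 11 lipid-associated macrophage genes, 8 were lower in both comparisons and 0 higher. Spp1 stood at 109 CPM in members, 2952 CPM in C1q cells without Cxcl9 and 1422 CPM in Folr2 Mrc1 cells, and Trem2, a lipid receptor gene, at 81.5 against 478 and 701 CPM. Pf4, a platelet-type chemokine gene also made by macrophages, was 60.2-fold and 58.5-fold lower. Ppbp, a platelet gene, stood at 0.385 CPM in members and at 259 and 240.3 CPM in the 2 groups, and within library 4 it had 0 UMIs in the 20 C1q cells without Cxcl9 but stood at 209 CPM in 183 C1q cells with 1 to 4 Cxcl9 UMIs, against 0.386 CPM in members of that library. The resident markers F13a1 and Cd163 stood at 49.5 CPM and 0.444 CPM in members and at 925 and 215 CPM in C1q cells without Cxcl9, most of it from library 2: without that library they stood at 301 and 31.6 CPM. Of 14 other chemokine genes, 2 were higher and 9 lower against C1q cells without Cxcl9, the higher ones being Ccl5 and Ccl8. In the sums of all C1q cells, 11 of the 14 were highest in library 2, beside 36.7% of all 3689 genes that reached 50 CPM. Among them was Ccl2, at 842, 4358, 468 and 929 CPM in libraries 1 to 4. Without library 2 the count against C1q cells without Cxcl9 was 2 higher and 4 lower of 13. Against Folr2 Mrc1 cells, 1 was higher, Ccl5, and 6 were lower, which became 4 lower of 13 without library 2 and 9 lower of 14 without library 3. Markers of other cells moved with these differences, and their part in them was not tested. Fibroblast markers, at 557 CPM in members, summed to 1128 and 1167 CPM in these groups and to 399 and 664 CPM without library 3, with Col3a1 the most abundant in members at 173 CPM. Granulocyte markers, at 234 CPM in members, summed to 1910.2 and 295 CPM, carried by library 2: without it the sums were 90.8 and 104 CPM, below members. Endothelial markers stood at 74.9 CPM against 514 and 373 CPM, the first falling to 294 CPM without library 2. Cardiomyocyte markers stood at 26.9 CPM against 431 and 395 CPM, or 133 and 172 CPM without library 1. They stood at 767 CPM in C1q cells without Cxcl9 once library 2 was left out. In Folr2 Mrc1 cells they stood at 595 CPM without library 3. The median mitochondrial share of UMIs was 3.53% in members and 5.16% and 6.02% in these groups.

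Leaving out 1 of libraries 1, 2 and 3 moved several other named levels by over 1.5 times. Without library 2, C1q cells without Cxcl9 held 153 CPM of Gbp2, 69.0 of Iigp1, 102 of Tap1, 38.1 of Ciita, 8898 of Cd74, 106 of Ccl5, 902 of Ccl8, 53.0 of Ly6i, 30.9 of Serpina3g and 811 of Trem2. Without library 1, Ccl8 in these cells stood at 281 CPM. Among Folr2 Mrc1 cells, Cd74 stood at 2490.2 CPM and Spp1 at 771 CPM without library 1, and F13a1 at 509 CPM and Cd163 at 70.3 CPM without library 2. Each of these genes was still on the same side of members. Without library 3, Folr2 Mrc1 cells held 148 CPM of Gbp2, 6011 of Cd74, 58.5 of Cd274, 22.3 of Nos2, 38.1 of Ly6i, 367 of Trem2, 414 of Ppbp, 1469 of F13a1 and 463 of Cd163, also on the same side. The fibroblast gene Col3a1 did change side without library 3, at 98.6 and 63.6 CPM in the 2 groups against 173 CPM in members.

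The few comparison cells that lay in library 4 itself were also read on their own. Among the 20 C1q cells without Cxcl9 there, Gbp2 stood at 1038 CPM (932 to 1152) and Tap1 at 463 CPM (393 to 541), next to 1445 and 569.8 CPM in members of library 4. These differences were under 2-fold. Fcgr4, at 1253 CPM (1137 to 1378), was not lower than the 1166 CPM of members. Ccl5 was still lower in these cells, at 770 CPM (679 to 869) against 2980 CPM. Pf4, at 2512 CPM (2346 to 2687), and Spp1, at 590 CPM (511 to 677), were still higher than the 56.8 and 109 CPM of members. Cd163 had 0 UMIs in the 20 cells, so its lower level in members was not seen within the library. Among the 8 Folr2 Mrc1 cells of library 4, Gbp2 stood at 904 CPM (794 to 1024), Fcgr4 at 1033 CPM (915 to 1161), Ccl5 at 538 CPM (455 to 633) and Pf4 at 3802 CPM (3574 to 4042).

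**Figure D3:**
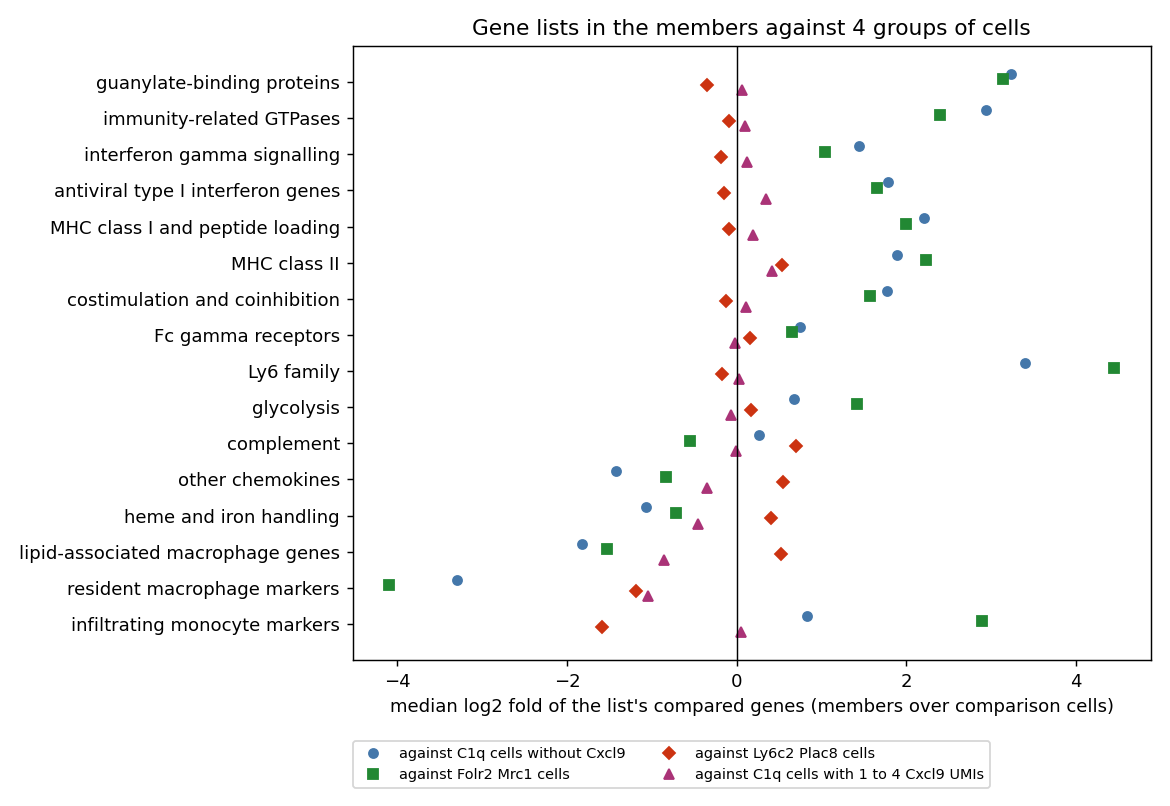
Each point is the median log2 fold (members over comparison cells, horizontal axis) of the compared genes of a list (vertical axis), with a symbol for each of 4 comparisons. Guanylate-binding proteins sit at 3.24 and 3.14 against the 2 groups that lie mostly outside library 4, and at -0.35 and 0.07 against the 2 groups within library 4.

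Within library 4 the members could be compared with cells from the same library. The 278 Ly6c2 Plac8 monocytes, with a median of 12559 UMIs, had at least 3 Ly6c2, 10 Plac8 and 10 Lyz2 UMIs and fewer than 2 C1qa and 5 Cxcl9 UMIs. Of 3109 genes compared, 2.19% were at least 2-fold higher in members and 1.7% lower. The interferon lists did not separate the groups by 2-fold: 1 of 8 guanylate-binding protein genes, 0 of 11 interferon gamma signalling genes, 0 of 12 antiviral genes, 0 of 15 MHC class I genes and 0 of 6 MHC class II genes were higher, and 0 of any of these were lower. Gbp2 stood at 1445 CPM against 2348 CPM (2296 to 2401) in the monocytes, and Irf1 at 431 against 558 CPM.

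Macrophage and chemokine genes set the members apart from these monocytes. Ccl8 stood at 2158 CPM in members and 158 CPM in the monocytes, a 12.9-fold difference. The monocyte-attracting chemokine genes Ccl7 and Ccl12 stood at 506 and 706 CPM against 134 and 176 CPM. Ccl5 stood at 2980 against 928 CPM. Apoe was 5.04-fold higher, the fatty acid carrier gene Fabp5 4.98-fold higher and Ms4a7 5.07-fold higher. The tenth of members with the most Apoe held 78.0% of its UMIs, and the median member had 3. Of 6 apoptotic cell clearance genes, 4 were higher, among them the receptor tyrosine kinase genes Mertk and Axl.

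Several granulocyte and monocyte genes were lower in members. S100a8, a calcium-binding alarmin gene, stood at 73.4 CPM against 1124 CPM, and S100a9 at 72.6 against 772 CPM. Chil3 was 5.69-fold lower, Ifitm6 6.06-fold lower and S100a4 3.72-fold lower. Ccr2, the receptor gene for CCL2, stood at 312 against 574 CPM, which was under 2-fold. Dcn, Col1a2 and other matrix genes were named by the size of their fold, but Dcn stood at 142 CPM in all members and at 19.0 CPM without the 27 fibroblast-rich and the erythroid-rich members, beside 19.4 CPM in the monocytes.

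A comparison with 183 C1q cells of library 4 that had 1 to 4 Cxcl9 UMIs was added after the data had been seen. These cells were shallower, with a median of 15465 UMIs against 19546 in members. Of 3020 genes, 0.397% were at least 2-fold higher in members and 1.42% lower. Ccl5 stood at 2980 CPM in members and 787 CPM in the cells with few Cxcl9 UMIs. Ccl8 stood at 2158 against 1199 CPM, and Cd40 at 214 against 109 CPM. Fcgr4 was nearly level, at 1166 and 1180 CPM. Of 11 lipid-associated genes, 5 were lower and 0 higher. Hmox1, the heme oxygenase gene, stood at 942 against 2647 CPM. Hemoglobin genes were lower too, but 1 cell of the comparison group was rich in them.

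Members differed widely among themselves in Ccl8. Of 1759 members, 29.8% had 0 Ccl8 UMIs, the median was 1, and the tenth with the most held 87.9% of the Ccl8 UMIs. Fcgr4 was at 0 in 0.398% of members, with a median of 19 UMIs. Free RNA in the droplets was read from T cells of the same library after thinning each cell to 2000 UMIs, which left out 3 members and 14 T cells. A Ccl8 UMI was then found in 31.6% of members and 13.9% of T cells, and a Fcgr4 UMI in 86.0% and 7.52%. In thinned endothelial cells of the library, the shares were 13.2% for Ccl8 and 14.0% for Fcgr4. Without thinning, the Ccl8 shares were 70.2% in members and 56.4% in T cells, at median depths of 19546 and 14757 UMIs.

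Members with and without Ly6c2 differed in Ccl8 and Apoe. The 1027 members with 5 or more Ly6c2 UMIs held 781 CPM of Ccl8 and 646 CPM of Apoe, and the 220 members with 0 held 6478 and 5562 CPM. Of 3014 genes, 0.431% were at least 2-fold higher with Ly6c2 and 1.33% lower. Plac8 stood at 3236 CPM with Ly6c2 and 1199 CPM without it, and the inflammatory cytokine gene Il1b at 2707 and 1390 CPM. Among members with Ly6c2, 10.3% (8.53 to 12.3%) had 20 or more Ccl8 UMIs, and among those without it 34.5% (28.3 to 41.2%) did. The guanylate-binding protein genes took 0.329% and 0.294% of UMIs. Members with Ly6c2 were deeper, with a median of 20067 UMIs against 15541, and had less of the granulocyte gene S100a9, at 60.2 against 202 CPM. Erythroid markers took 0.0196% of UMIs with Ly6c2 and 0.00363% without it, and fibroblast markers 0.0337% and 0.0395%. Timp1, at 286 CPM in members and 60.1 CPM without fibroblast-rich and erythroid-rich cells, stood at 109 and 410 CPM. The part of depth or of any of these markers in this split was not tested.

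Mrc1 marked a smaller set of members. The 147 members with 3 or more Mrc1 UMIs held 8261 CPM of Ccl8, and the 1332 without Mrc1 held 810 CPM. Folr2 stood at 129 and 6.89 CPM in these sets. Of 3024 genes, 1.22% were at least 2-fold higher with Mrc1 and 0.86% lower. The lower ones were led by the matrix genes Col1a2, Sparc and Dcn, and the fibroblast markers took 0.0121% of UMIs with Mrc1 and 0.0609% without it, whose part in the split was not tested. Apoe stood at 4547 and 1094 CPM. Members with Mrc1 were deeper, with a median of 27453 UMIs against 18463.5, and the part of depth in this split was not tested.

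**Figure D4:**
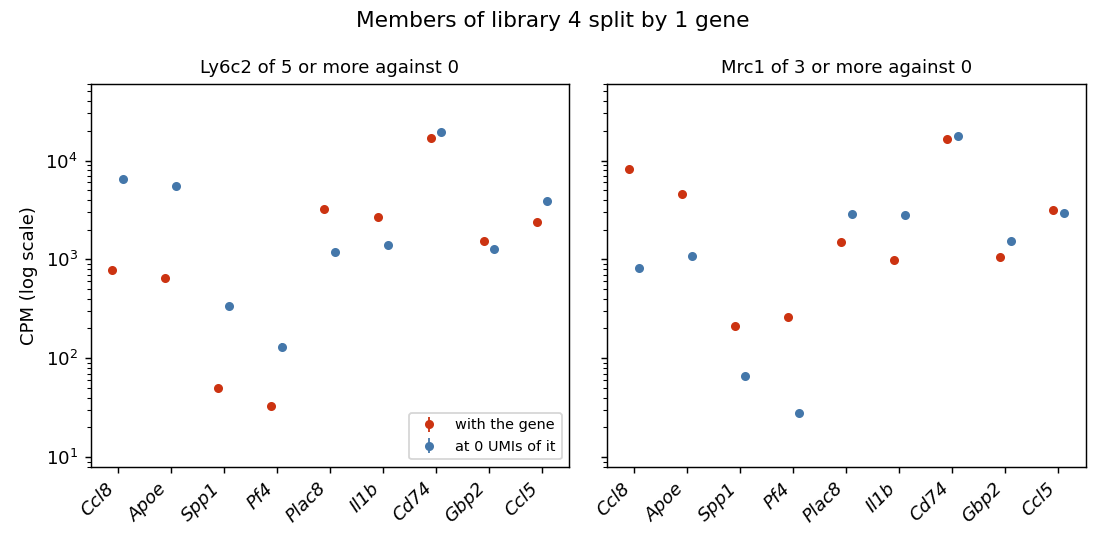
Points give the level of 9 genes (CPM, log axis) in members of library 4 with and without Ly6c2 or Mrc1, and lines, mostly hidden by the points, give 95% Poisson intervals. Ccl8 is lower with Ly6c2 (781 against 6478 CPM) and higher with Mrc1 (8261 against 810 CPM), while Gbp2 and Cd74 differ less.

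Members were last ordered by Cxcl9 share of UMIs in quartiles, which had medians of 894, 2222, 3944 and 7367 CPM of Cxcl9. Ccl5 stood at 1490, 2136, 3345 and 5023 CPM from the lowest to the highest quartile. Ccl8 stood at 693, 1522, 2018 and 4461 CPM, and Cd40 at 140, 172, 231 and 318 CPM. The sums of all 3 genes were higher in each step, but most Ccl8 UMIs came from few cells. MHC class II genes took 3.32%, 3.79%, 4.10% and 4.41% of UMIs, while the guanylate-binding protein genes stayed between 0.311% and 0.330%. Median depth was similar across quartiles, from 19295 to 19934 UMIs, but markers of other cells were not level. Fibroblast markers took 0.118%, 0.0250%, 0.0230% and 0.0515% of UMIs, erythroid markers 0.00349%, 0.00324%, 0.00353% and 0.0436%, and infiltrating monocyte markers 0.457%, 0.453%, 0.397% and 0.332%. Their part in the order of the quartiles was not tested. Across the 1759 cells, which share a library, Spearman's rho with Cxcl9 was 0.38 for Ccl5, 0.31 for Cd40 and 0.10 for Ccl8, and -0.03 for UMIs per cell.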

How the data were processed

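Cells were profiled with the 10x Genomics 3′ kit. The authors aligned reads to mm10 with Cell Ranger 3.0.0 and deposited UMI counts per gene and cell as 1 matrix of 53824 cells and 30905 genes, not normalized. The submitters' processing notes also name CASAVA 1.8 and Seurat. Of the deposited cells, 44626 had over 200 genes and under 20% mitochondrial UMIs, limits that the study also used. The study marked doublets as well and states a smaller number of cells. Counts were summed over the cells of a group and divided by non-mitochondrial UMIs, with exact Poisson intervals for levels and Clopper-Pearson intervals for shares. No p-value is given, since the libraries could not be tied to grafts.

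A comparison used library 4 where both groups had 50 cells there, and otherwise all 4 libraries, which was the case for C1q cells without Cxcl9 and for Folr2 Mrc1 cells. Lists could be named in full, and beyond them the 12 highest and 8 lowest folds among genes at 100 CPM or more. The members and lists were chosen with earlier results of these data known, and 283 of 285 list names matched. Doublets were kept. A score from simulated pairs of cells marked 5% of each library for an alternative. Tested on added pairs, it marked 70.7% of pairs of a member and a Cd3e cell, 29.3% of random pairs and 4.0% of pairs of members, so it misses doublets of like cells. On simulated data for the monocyte comparison (2903 genes), 200 genes were changed 4-fold up or down, and 100.0% of them were called at 2-fold. The simulation held counting noise only and no spread between cells. It therefore checks the computation and cannot show how reliable the calls on real cells are. Across libraries, 308 barcodes occurred in 2 libraries, and 19 members had such a barcode (1.08%, against 1.14% of all cells). Alternatives changed the added constant, the level filter, centring, weighting of cells, depth range, doublets, the rule and the libraries. Analyses used Python 3 with numpy, scipy, pandas and scikit-learn. Results for some genes of the lists are not reported here.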

Additional observations from a re-analysis of the deposited data

How the results depend on the processing

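No paired analysis was possible because the cells could not be tied to the numbered grafts and no test was made. Of the log2 folds of named genes over all alternatives, 725 stayed within 0.25 of the reported value (0.5 where both were past 2-fold), 158 moved further and 17 changed sign. Most folds of the comparisons across libraries did not hold their size within library 4: of 40, 1 stayed, 32 moved and 7 changed sign. Counts of genes past 2-fold changed by over 1.5 times in these cases, higher first: against C1q cells without Cxcl9 within library 4 (20 cells), 80 and 56 in place of 303 and 215, and 406 lower with genes from 10 CPM; against Folr2 Mrc1 cells within library 4 (8 cells), 170 and 123 in place of 332 and 288, and 587 lower with genes from 10 CPM; against Ly6c2 Plac8 monocytes, 108 and 82 with genes from 10 CPM and 45 higher at 10000 to 30000 UMIs, in place of 68 and 53. The share of members, 3.95%, became 3.46% with 20 C1qa UMIs, 3.62% with 10 Cxcl9 UMIs, 4.77% by share of UMIs, 4.67% under 10% mitochondrial UMIs, 4.75% without fibroblast-rich and erythroid-rich cells, and 0.00900 to 5.60% when 1 library was left out, the lowest without library 4.

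The sign changed within library 4 for Ccl24 (log2 0.19), Ppbp (0.055), Fcrls (0.14) and Cd163 (0.059) against C1q cells without Cxcl9, and for Cxcl13 (0.025), Hpgd (0.025) and Igf1 (0.16) against Folr2 Mrc1 cells. The remaining changes of sign were in matrix and hemoglobin genes. Without fibroblast-rich and erythroid-rich cells, an alternative added after seeing the data, they were Dcn (-0.019) and Col1a2 (-0.047) against the monocytes, and Dcn (-0.003), Sparc (-0.027), Hbb-bs (0.032) and Hba-a2 (0.069) against cells with 1 to 4 Cxcl9 UMIs. In that last comparison Sparc was -0.025 as a mean over cells, and Dcn (-0.575), Bgn (-0.425) and Sparc (-1.141) changed sign at 10000 to 30000 UMIs.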

Other observations

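Glycolysis genes were higher in members than in Folr2 Mrc1 cells for 11 of 14 genes and lower for 0, and higher than in C1q cells without Cxcl9 for 4 of 14, or 11 of 14 without library 2. Without library 3 the count against Folr2 Mrc1 cells was 7 of 14. Gapdh stood at 5386 CPM in members. Against the monocytes of library 4, 0 of 14 passed 2-fold. The Ly6 family, surface proteins of which several are interferon-inducible, was higher for 4 of 4 genes in both comparisons across libraries. Ly6a stood at 4430.2 CPM in members against 355 CPM in C1q cells without Cxcl9 and 3851 CPM in the monocytes. Summed over all C1q cells, Ly6a stood at 79.0, 80.0, 71.0 and 4442 CPM in libraries 1 to 4.

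Members were not the only source of Cxcl9 in library 4: they held 27.5% of its Cxcl9 UMIs and 56.4% of its Ccl8 UMIs, with 21.9% of all its UMIs. Cell cycle genes were low, with the 13 genes summing to 148 CPM in members, where the rule had removed cells with 2 or more Mki67 UMIs.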
